A study of Saccharomyces cerevisiae with 2 samples.

Results

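The hexose transporter genes HXT1 to HXT7, the glucose sensor genes SNF3 and RGT2 and the regulator gene MTH1 were examined in RNA-seq data from Saccharomyces cerevisiae. The 10 genes were chosen by name, from the 7127 features of the deposited count table, and all 10 had at least 10 counts in both libraries together, the minimum for the 6116 genes compared. RNA of 1 wild type culture and of 1 npl3Δ culture was sequenced, the latter lacking the gene for the mRNA-binding protein Npl3. Both cultures grew at 25 °C, were diluted to 10000000 cells per ml and were harvested at 20000000 cells per ml, and libraries were made from 200 ng of total RNA without removal of rRNA. The paper's results place its strains in the background of BY4741, a haploid laboratory strain with auxotrophic markers, but its methods name a different base strain for a few. Which strains were sequenced was not stated. Strains were grown in standard media, without further detail for the sequenced cultures in the sources used here. With 1 library per genotype there is no replicate spread and no test. Intervals are 95% intervals for counting error only, and a difference between the 2 strains or cultures other than the NPL3 deletion cannot be told apart from it.

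Yeast takes up glucose through a family of membrane transporters that differ in affinity, and exchanges them as the sugar is used up. Snf3 and Rgt2 resemble transporters but act as receptors, Snf3 for low and Rgt2 for high glucose. Their signal leads to the degradation of Mth1 and its paralog Std1, which the repressor Rgt1 needs to hold HXT genes silent. Npl3 accompanies nuclear mRNAs and acts in their quality control and export.

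Only 1.14% of all wild type counts and 1.66% of all npl3Δ counts fell on features other than rRNA, and these 4799318 and 6674796 counts limit the depth for mRNAs. ATG26 alone held 23.5% and 34.5% of them and BDF1 had 505 and 50981 counts, so library sizes were taken without ATG26 and BDF1 (3670150 and 4319945 counts). With this scaling the median gene had a log2 ratio of npl3Δ to wild type of 0.25, and setting this median to 0 moves every log2 ratio down by that amount. NPL3 itself was counted 1345 times in the wild type library against 3 times in the mutant. The libraries also differed in mating-type genes, with 774 and 8 counts for the α-factor receptor gene STE2 and 6 and 1326 for the a-factor receptor gene STE3, and genes of chromosome I had a median log2 ratio of 1.22. Their part in the values below was not tested. None of the 10 genes lies on chromosome I. They lie on chromosomes IV (6 genes), VIII (3 genes) and XIII (1 gene), whose genes had median log2 ratios of 0.28, 0.20 and 0.20.

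In npl3Δ, HXT1 and HXT5 were at least 2-fold lower, HXT3 was 1.94-fold lower, and none of the 10 genes was at least 2-fold higher. Among all genes tested, 2.70% were at least 2-fold lower and 12.0% at least 2-fold higher. With the median of all genes set to a ratio of 1, with SCR1 as reference or with ATG26 and BDF1 kept in the library size, HXT3 passed 2-fold as well, so that 3 of 10 genes were lower. Under these scalings 4.55%, 4.73% and 4.43% of all genes tested, respectively, were at least 2-fold lower. The median log2 ratio of the 10 genes was -0.02 against 0.25 for all genes. HXT1, HXT3, HXT5 and RGT2 were lower in npl3Δ under all 5 scalings tried, while the direction of HXT2, HXT4, HXT6 and SNF3 depended on the scaling. HXT7 and MTH1 had log2 ratios above 0 under all 5. With the median of all genes set to a ratio of 1, however, these were only 0.04 and 0.15. The counting interval of MTH1 included a ratio of 1 with the scaling used here.

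**Figure D1:**
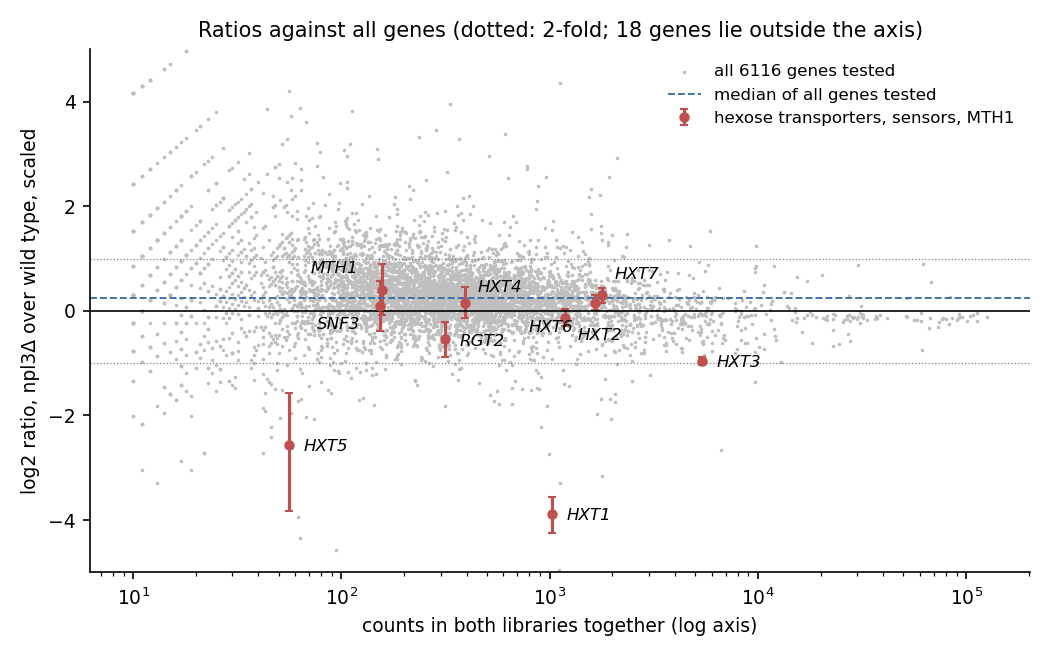
Each point is a gene, with its counts in both libraries together on the log x axis and its scaled log2 ratio of npl3Δ to wild type on the y axis, where 18 genes lie outside the range shown. The 10 genes are drawn in red with 95% counting intervals, and HXT1 at -3.88 and HXT5 at -2.56 lie below the 2-fold line, HXT3 at -0.95 just above it.

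HXT1 (YHR094C, chromosome VIII, 290913 to 292625, minus strand) encodes a low-affinity transporter that is made when glucose is abundant. It was counted 947 times in wild type against 75 times in npl3Δ. Scaled to library size, its ratio was 0.0673 (0.0525 to 0.0852), that is 14.9-fold lower in the mutant (11.7 to 19.1). The log2 ratio of -3.88 exceeded that of only 0.229% of the genes tested. Ranked by counts per kilobase as deposited, HXT1 went from rank 2 of the 10 genes in wild type to rank 8 in npl3Δ. Among 6004 protein-coding genes ranked in this way, HXT1 went from the 89.9th to the 16.5th percentile.

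HXT3 (YDR345C, chromosome IV, 1162957 to 1164660, minus strand) encodes the other major low-affinity transporter and had the most counts of the 10 genes in both libraries. It was counted 3355 times in wild type against 2038 times in npl3Δ, a scaled ratio of 0.516 (0.488 to 0.545), with a log2 ratio higher than that of 2.96% of the genes tested. HXT1 differed more than HXT3, as the number of HXT1 counts per HXT3 count, which does not depend on library size, was 0.282 in wild type but 0.0368 in npl3Δ. This quotient changed by a factor of 0.130 (0.102 to 0.166, normal approximation on the log scale).

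HXT5 (YHR096C, chromosome VIII, 294669 to 296447, minus strand), whose transporter is known from slowly growing and non-growing cells, had 47 wild type counts against 9 in npl3Δ. The ratio was 0.163 (0.0701 to 0.336), a 6.15-fold lower value whose interval of 2.98 to 14.3 is wide because of the few counts. HXT5 was thus poorly expressed in both cultures, at the 15.7th and the 4.28th percentile of protein-coding genes.

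HXT2 (YMR011W, chromosome XIII, 288079 to 289704, plus strand) and HXT4 (YHR092C, chromosome VIII, 287081 to 288811, minus strand) encode transporters of higher affinity that are made when glucose is low. HXT2 had 574 and 618 counts, a ratio of 0.915 (0.815 to 1.03), which was above 1 without scaling. HXT4 had 170 and 223 counts, a ratio of 1.11 (0.909 to 1.37), which was below 1 under 3 of the other scalings. Neither interval left out a ratio of 1, so with this scaling no difference was detectable at this depth, but relative to the median of all genes HXT2 had a log2 ratio of -0.38. Relative to HXT3, both were higher in npl3Δ, HXT2 by a factor of 1.77 (1.56 to 2.01) and HXT4 by a factor of 2.16 (1.76 to 2.66).

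HXT6 (YDR343C, chromosome IV, 1159608 to 1161320, minus strand) and HXT7 (YDR342C, chromosome IV, 1154216 to 1155928, minus strand) encode high-affinity transporters and are near identical. Their coding sequences of 1713 bases differ at 3 positions, T1632C, G1666A and T1677C, where the first letter is that of HXT6 and positions are counted from the A of the start codon. The stretch around the first difference is shown, with the differing base in capitals, because reads can be told apart only at such places (R64, the build sacCer3, coding bases 1612 to 1652, chrIV:1159669-1159709 for HXT6 and chrIV:1154277-1154317 for HXT7, minus strand).
HXT6: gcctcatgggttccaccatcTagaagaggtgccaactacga
HXT7: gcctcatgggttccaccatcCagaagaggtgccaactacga

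Of the 50-base stretches of the coding sequence of HXT6, only 4.93% occur once in the genome, and the same holds for HXT7. For the other 8 genes this share was 85.1% in HXT3 and at least 95% in the rest. How reads with several places were counted was not stated, so the counts of HXT6 and HXT7 may hold the same reads and are best read together. If such reads were left out instead, the counts come from a small part of each gene and understate its level. HXT6 had 717 and 939 counts and HXT7 had 728 and 1051. Together they had 1445 wild type counts against 1990 in npl3Δ, a ratio of 1.17 (1.09 to 1.25) that was below 1 with the median of all genes set to 1. The log2 ratio of HXT7, 0.29, was close to the median of all genes, and that of HXT6, 0.15, became negative under 3 of the other scalings. The number of HXT7 counts per HXT3 count was 0.217 in wild type but 0.516 in npl3Δ, a factor of 2.38 (2.13 to 2.65).

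The sum over HXT1 to HXT7 was 6538 counts for wild type against 4953 for npl3Δ, a scaled ratio of 0.644 (0.620 to 0.668). HXT1 and HXT3 together had a ratio of 0.417 (0.396 to 0.440), whereas HXT2, HXT4, HXT6 and HXT7 together had a ratio of 1.10 (1.04 to 1.16), below 1 with the median of all genes set to 1. The make-up of the transporter mRNAs, which needs no scaling, therefore differed. Of the counts on the 7 genes, HXT1 made up 14.5% in wild type (13.6 to 15.4) but 1.51% in npl3Δ (1.19 to 1.89), and HXT3 made up 51.3% (50.1 to 52.5) and 41.1% (39.8 to 42.5). HXT7 held 11.1% (10.4 to 11.9) and 21.2% (20.1 to 22.4), HXT6 held 11.0% (10.2 to 11.7) and 19.0% (17.9 to 20.1), and HXT2 held 8.78% (8.10 to 9.49) and 12.5% (11.6 to 13.4). HXT4 accounted for 2.60% and 4.50% and HXT5 for 0.719% and 0.182%. The Clopper-Pearson intervals of the libraries, which hold counting error only, did not overlap for any of the 7 genes. Shares are parts of a whole, however, so lower shares of HXT1 and HXT3 go with higher shares elsewhere. The 7 genes are therefore not separate results here. The shares of HXT2 and HXT4 were higher in npl3Δ although their scaled ratios were 0.915 (0.815 to 1.03) and 1.11 (0.909 to 1.37). In the counts as deposited, HXT1 and HXT3 held the larger part in wild type and the smaller part in npl3Δ. If HXT6 and HXT7 hold the same reads, these enter the sum more than once, and the part of HXT1 and HXT3 is then understated in both libraries. If reads with several places were left out instead, the part of HXT6 and HXT7 is understated and that of HXT1 and HXT3 overstated. Whether HXT1 and HXT3 are the larger part in wild type and the smaller part in npl3Δ therefore cannot be told from these counts.

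**Figure D2:**
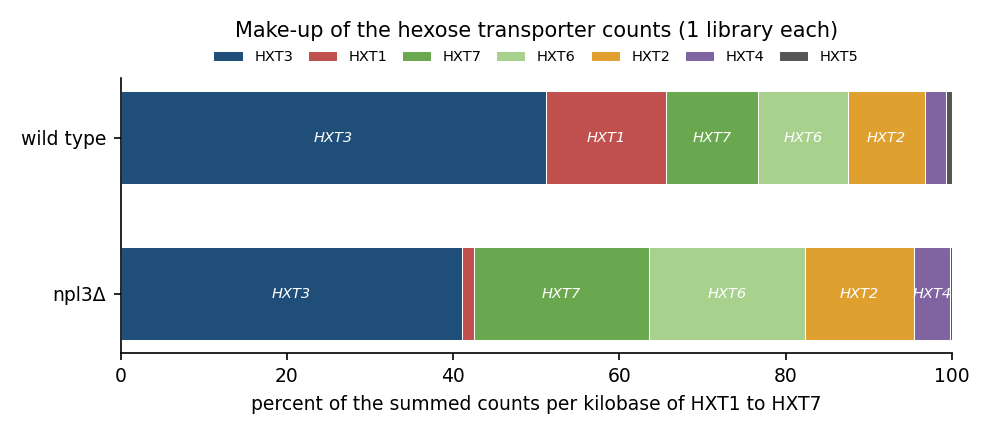
Each bar is 1 library, divided into the percent that each transporter gene contributes to the summed counts per kilobase of HXT1 to HXT7. HXT3 is the largest segment in both, at 51.2% in wild type, the HXT1 segment of 14.4% in wild type is nearly gone in npl3Δ, and HXT6 and HXT7 take larger parts there.

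Among the sensor genes, RGT2 (YDL138W, chromosome IV, 213351 to 215642, plus strand), encoding the receptor for high glucose, had 175 wild type counts against 141 in npl3Δ. Its ratio of 0.685 (0.544 to 0.859) lay above that of 7.37% of the genes tested. SNF3 (YDL194W, chromosome IV, 111580 to 114234, plus strand), encoding the receptor for low glucose, had 68 and 85 counts, a ratio of 1.06 (0.763 to 1.48) that was below 1 under 3 of the other scalings. The number of RGT2 counts per SNF3 count was 2.57 in wild type but 1.66 in npl3Δ, a factor of 0.645 (0.437 to 0.951). MTH1 (YDR277C, chromosome IV, 1014401 to 1015702, minus strand), encoding the partner of Rgt1, had 61 and 95 counts. This gave the highest log2 ratio of the 10 genes, 0.40, but the interval of the ratio of 1.32 (0.949 to 1.86) includes 1.

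In RPKM, the counts per kilobase of coding sequence scaled to library size, which allow levels of genes to be compared, the order in wild type was HXT3 (536), HXT1 (151), HXT7 (116), HXT6 (114), HXT2 (96.2), HXT4 (26.8), RGT2 (20.8), MTH1 (12.8), HXT5 (7.20) and SNF3 (6.98). The 95% Poisson intervals of neighbours in this order overlapped for HXT7 and HXT6, for HXT4 and RGT2 and for HXT5 and SNF3. In npl3Δ the order was HXT3 (277), HXT7 (142), HXT6 (127), HXT2 (88.0), HXT4 (29.8), MTH1 (16.9), RGT2 (14.2), HXT1 (10.1), SNF3 (7.41) and HXT5 (1.17). Here the intervals overlapped for HXT7 and HXT6, for MTH1 and RGT2, for RGT2 and HXT1 and for HXT1 and SNF3. The sensor and regulator mRNAs were thus rare beside those of the main transporters in both libraries, and HXT1 in npl3Δ was found at the level of the sensors. The places of HXT6 and HXT7 in both orders hold only for the counts as deposited. Reads with several places may be missing from these counts or counted more than once.

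**Figure D3:**
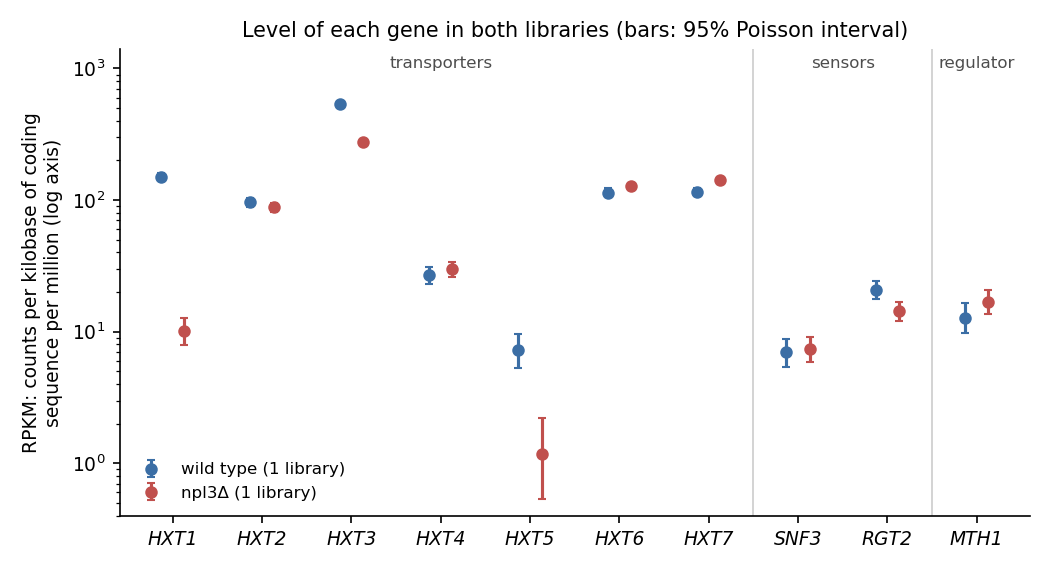
The log y axis gives the level of each gene in RPKM, counts per kilobase of coding sequence scaled to library size, in wild type (blue) and npl3Δ (red), 1 library each, with 95% Poisson intervals. HXT1 lies at 151 and 10.1 and HXT5 at 7.20 and 1.17, while the other transporters differ by at most a factor of 1.94 between the libraries.

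Among HXT genes that lie close together, HXT4 and HXT1 had unlike log2 ratios, as did HXT6 and HXT3. HXT1 and HXT5 were both at least 2-fold lower, and HXT7 and HXT6 had log2 ratios close to each other. If HXT6 and HXT7 hold the same reads, their likeness is given in advance. On chromosome VIII, HXT4, HXT1 and HXT5 lie within 9367 bases on the same strand, and their log2 ratios were 0.16, -3.88 and -2.56, where the interval of HXT4 includes no difference and its sign turned under 3 of the other scalings. The genes that border this group, MSR1 and PAL2, had 90 and 225 counts and 58 and 257 counts, respectively, and were higher in npl3Δ with log2 ratios of 1.08 and 1.90. AHT1, on the opposite strand between HXT4 and HXT1, had 0 counts in both libraries. On chromosome IV, HXT7, HXT6 and HXT3 lie within 10445 bases on the same strand with log2 ratios of 0.29, 0.15 and -0.95, where the sign of HXT6 likewise turned under 3 of the other scalings, and the bordering genes YDR341C and SVF1 had -0.10 and 0.29. YDR344C, between HXT6 and HXT3, had 27 and 47 counts.

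The genes differ in the number of sequences before their start codons that resemble the site of Rgt1, CGGANNA, searched on both strands over 1000 bases of the R64 genome. HXT3 had 9 matches and HXT1 had 8, and no other of the 6021 protein-coding genes had 8 or more. HXT5 and MTH1 had 4, HXT2, HXT4 and HXT6 had 3, HXT7 had 2, and SNF3 and RGT2 had 0. Of all protein-coding genes, 66.4% had at least 1 match and 11.1% had 3 or more. The windows reach into the neighbouring genes AHT1 for HXT4 (330 bases away), SEC31 for SNF3 (550 bases), YDR344C for HXT6 (685 bases) and PAL2 for HXT5 (937 bases). A match says only that these letters occur, not that Rgt1 was bound.

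The 300 bases with the most matches are shown for HXT3 and HXT1, the low-affinity transporter genes with lower counts in npl3Δ, 5′ to 3′ on the strand of the gene and with the matches in capitals. A match in the other orientation reads TNNTCCG. For HXT3, chrIV:1164899-1165198 (minus strand, 538 to 239 bases before the start codon) holds 7 matches, and for HXT1, chrVIII:292810-293109 (minus strand, 484 to 185 bases before the start codon) holds 4.
HXT3: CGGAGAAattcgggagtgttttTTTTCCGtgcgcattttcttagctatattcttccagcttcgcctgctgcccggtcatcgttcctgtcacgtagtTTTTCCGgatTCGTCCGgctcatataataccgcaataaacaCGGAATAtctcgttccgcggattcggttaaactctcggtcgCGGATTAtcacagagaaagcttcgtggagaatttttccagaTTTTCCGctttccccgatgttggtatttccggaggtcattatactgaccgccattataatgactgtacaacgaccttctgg
HXT1: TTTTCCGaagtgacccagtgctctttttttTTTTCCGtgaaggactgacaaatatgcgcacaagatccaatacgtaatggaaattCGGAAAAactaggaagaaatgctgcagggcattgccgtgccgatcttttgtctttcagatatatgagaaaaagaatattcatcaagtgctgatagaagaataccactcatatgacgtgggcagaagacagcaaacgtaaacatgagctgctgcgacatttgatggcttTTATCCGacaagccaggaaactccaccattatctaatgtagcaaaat

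For comparison, HXT7, whose log2 ratio was close to the median of all genes, had its matches farther away, 724 and 661 bases before the start codon (chrIV:1156635-1156664 and chrIV:1156572-1156601, minus strand), and had none within 500 bases. Within 500 bases, HXT3 had 5 matches and HXT1 had 4. HXT2 and HXT4 had 2 each, with ratios of 0.915 and 1.11. HXT5 and HXT6 had 1 each, with ratios of 0.163 and 1.11. SNF3, RGT2 and MTH1 had 0, with ratios of 1.06, 0.685 and 1.32.
HXT7, distal match: caacaaatttttTTTTCCGtaacaacaaac
HXT7, proximal match: agccagagccgtTTTTCCGccatatttatc

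The sites of the repressor Mig1, searched as CCGGGG or CTGGGG or GCGGGG or GTGGGG on both strands, were found 4 times before HXT2 and HXT4, 3 times before HXT6 and MTH1, 2 times before HXT1, HXT3, HXT7 and SNF3, 1 time before HXT5 and 0 times before RGT2. At least 1 match was held by 41.9% of all protein-coding genes and 3 or more by 2.89%. The stress response element CCCCT, some of whose letters the Mig1 motif shares, was found 5 times before HXT6 and 4 times before HXT7, 3 times before MTH1, 2 times before HXT5, 1 time before HXT1, HXT3, HXT4 and RGT2 and 0 times before HXT2 and SNF3, with at least 1 match in 54.8% of all genes.

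**Figure D4:**
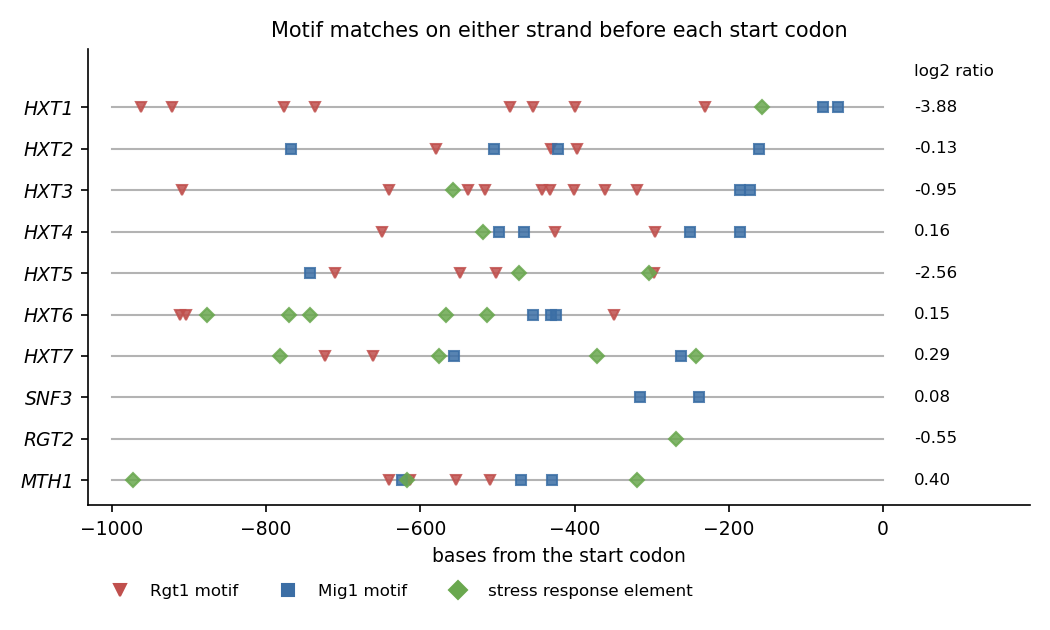
Each line is the 1000 bases before the start codon of 1 gene, the x axis gives bases from the start codon, and symbols mark matches to the motifs of Rgt1 and Mig1 and to the stress response element on either strand, with the scaled log2 ratio at the right. HXT1 and HXT3 carry 8 and 9 Rgt1 matches and HXT7 carries 2.

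All 10 genes consist of a single coding exon. HXT1 and HXT3 share 83.0% of their aligned bases, HXT3 and HXT6 share 82.6% and HXT4 and HXT6 share 82.9%, compared with 99.8% for HXT6 and HXT7. HXT3 was thus nearly as close in sequence to HXT6 as to HXT1. The encoded proteins have 541 to 592 residues for the transporters, 884 for Snf3, 763 for Rgt2, which carry long cytoplasmic tails, and 433 for Mth1.

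The other genes of the pathway were read from lists of 45 genes, of which 37 had at least 10 counts. Of these, 3 were at least 2-fold higher and 6 at least 2-fold lower in npl3Δ, where the shares among all genes were 12.0% and 2.70%. Their median log2 ratio was 0.17 beside 0.25 for all genes. In the list of 9 genes that act with Rgt1, RGT1 itself (YKL038W), the repressor of HXT genes, had 300 wild type counts against 1283 in npl3Δ. Its ratio was 3.63 (3.20 to 4.13), with a log2 ratio above that of 96.7% of the genes tested. No other gene of this list was 2-fold higher or lower. GRR1, encoding the subunit of the ubiquitin ligase that recognizes Mth1, had a ratio of 1.58 (1.37 to 1.83). The kinase genes YCK1 and YCK2, which act below the sensors, had ratios of 1.13 (0.995 to 1.28) and 1.18 (1.04 to 1.33), and STD1, the paralog of MTH1, had 225 and 277 counts and a ratio of 1.05 (0.874 to 1.25). With the median of all genes set to 1, the log2 ratios of YCK1, YCK2 and STD1 were -0.08, -0.02 and -0.19.

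Among 13 genes of glucose repression, 0 were at least 2-fold higher and 2 were at least 2-fold lower, beside 12.0% and 2.70% of all genes. These were MIG2, with 418 and 241 counts and a ratio of 0.490 (0.416 to 0.575), and MIG3, with 71 and 37 counts and a ratio of 0.443 (0.289 to 0.668), both encoding repressors that are known to be induced by glucose. Without scaling neither reached 2-fold. MIG2 had 7 Rgt1 matches before its start codon, a number reached by 7 of 6021 protein-coding genes, itself included, and MIG3 had 5. Of the other listed genes that were at least 2-fold lower, HXT8 and ADH2 had 6 matches, GAL4 had 1 and CSR2 had 0. MIG1, the relative of MIG2 and MIG3, had a ratio of 0.828 (0.706 to 0.971), and SNF1, the kinase that acts against Mig1, had a ratio of 1.30 (1.11 to 1.52). With the median of all genes set to 1, the log2 ratios of MIG1 and SNF1 were -0.52 and 0.12.

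Of the hexose kinase genes, which act on the sugar after its uptake, HXK1 was 3.88 times as high in npl3Δ (3.25 to 4.65), with 154 and 703 counts. This gene is known to be repressed when glucose is abundant. HXK2, the main kinase gene in glucose, had 3156 and 3672 counts, a ratio of 0.988 (0.942 to 1.04), and GLK1 had a ratio of 1.05 (0.916 to 1.20). The glucose-repressed genes outside transport did not all share the direction of HXK1. SUC2, the invertase gene, had 129 and 145 counts and a ratio of 0.955 (0.748 to 1.22), while ADH2, encoding an alcohol dehydrogenase that consumes ethanol, was lower with 316 and 142 counts and a ratio of 0.382 (0.311 to 0.467). GAL4, encoding the activator of galactose genes, was lower with 44 and 13 counts and a ratio of 0.251 (0.124 to 0.475), and GAL1, a target of Gal4, had only 16 and 29 counts.

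The remaining 11 hexose transporter genes, among them GAL2, had few counts, with 23 in wild type against 45 in npl3Δ in all. How much of their sequence occurs once in the genome was not examined, so few counts need not mean low expression. Only HXT8, HXT11 and GAL2 reached 10 counts, with 11 and 3, 2 and 11, and 6 and 4 counts, so that the size of any change is uncertain. HXT13 had 0 counts in both libraries, which allows up to 3 counts in each. The 7 genes HXT1 to HXT7 thus held nearly all transporter counts in both libraries. Of the genes for arrestin-like adaptors that direct transporters to degradation, ROD1 had 126 and 185 counts, a ratio of 1.25 (0.989 to 1.58), and ROG3 had 93 and 139. CSR2, which has fewer than 50 counts and was named after its values were seen, had 36 and 6 counts and a ratio of 0.142 (0.0488 to 0.339). The genes of the other glucose receptor, GPR1 and GPA2, had ratios of 1.06 (0.855 to 1.31) and 0.803 (0.641 to 1.01).

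**Figure D5:**
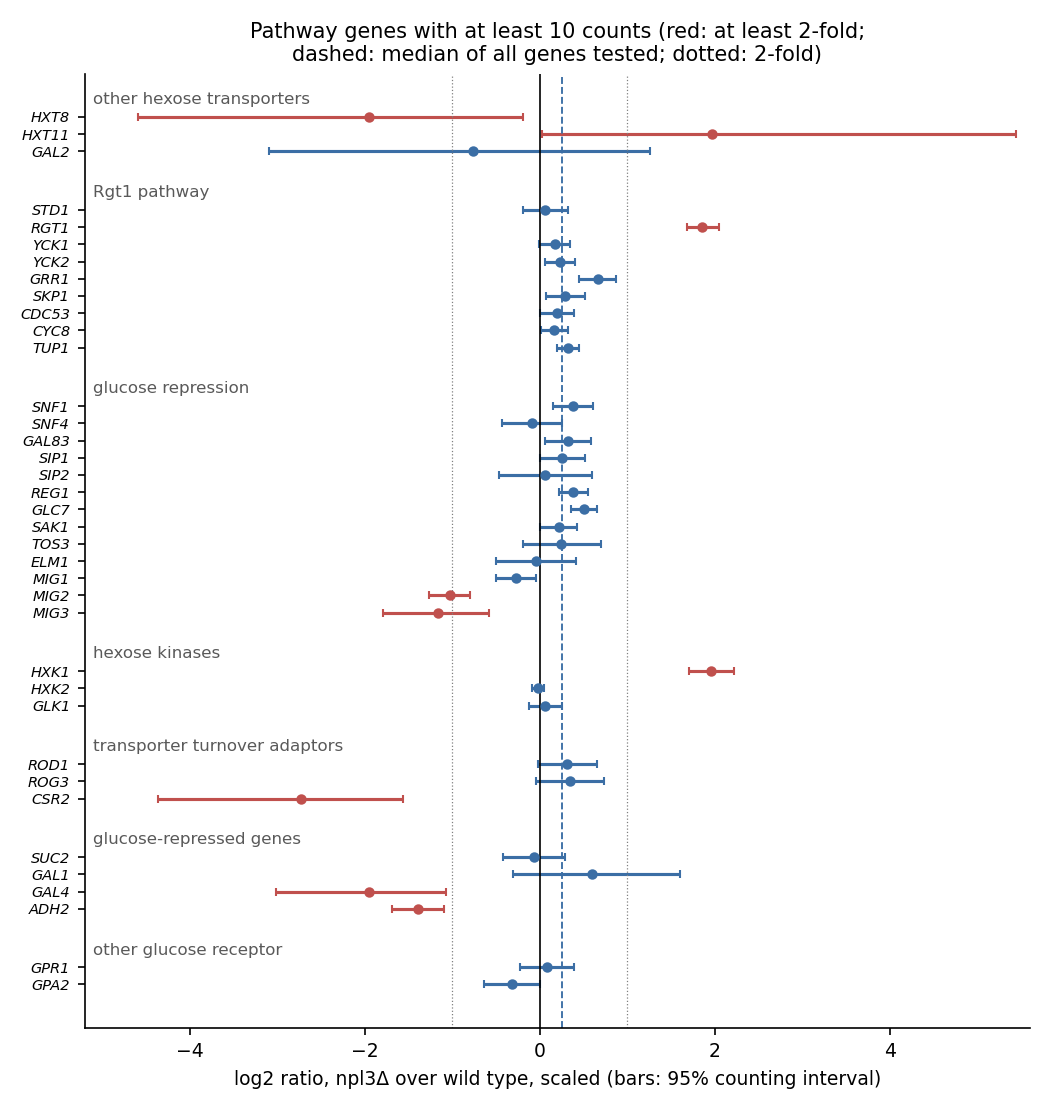
Each point is the scaled log2 ratio of npl3Δ to wild type of 1 pathway gene, grouped by list, with 95% counting intervals and in red where at least 2-fold. RGT1 at 1.86 and HXK1 at 1.95 stand to the right, and MIG2 at -1.03, MIG3 at -1.17 and ADH2 at -1.39 to the left of most genes.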

How the data were processed

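RNA was sequenced from 1 wild type and 1 npl3Δ culture. The authors aligned the reads to sacCer3 by Hisat2, summarised them over annotated features by featureCounts and deposited raw counts. Versions, annotation and the treatment of reads with several places were not given in the sources used here. The deposited coverage of the 35S rRNA was not used.

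Counts were scaled by all counts outside the rRNA, without ATG26 and BDF1. Log2 ratios carry a pseudocount of 0.5 after a minimum of 10 counts in both libraries together, and the fold threshold was 2. Ratios have exact conditional binomial (Clopper-Pearson) 95% intervals, levels have Poisson intervals and quotients of genes normal ones on the log scale. Intervals describe counting error alone, and PCR copies of a molecule were not told apart. The calculations were tested on simulated data. Coordinates, coding lengths and sequences are those of RefSeq R64, the same build as sacCer3, and 6088 of 7127 features matched it by locus tag or symbol.

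Genes were named by a rule: the 10 genes, GAL2, STD1, RGT1, YCK1, YCK2, GRR1, SNF1, MIG1, MIG2, MIG3, HXK1, HXK2, GLK1, SUC2 and ROD1, other listed genes of at least 50 counts past 2-fold, neighbours, NPL3 and SCR1. HXT8, HXT11, HXT13, CSR2, ROG3, GAL1, GPR1, GPA2, STE2 and STE3 were added after their values were seen. The genes and lists were chosen with earlier results of these data known. Alternatives concerned scaling, pseudocount, minimum count, fold, the pair HXT6 and HXT7 and the promoter window. Statistics were computed with scipy 1.17.1 and numpy 2.4.6, tables with pandas 2.3.3 in Python 3.11.15, alignments with Biopython 1.88 and plots with matplotlib 3.10.9.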

Additional observations from a re-analysis of the deposited data

How the results depend on the processing

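No paired analysis was possible because there was 1 library per genotype, and no library could be left out. HXT1 and HXT5 were at least 2-fold lower under every scaling, pseudocount and minimum count tried. HXT3 passed 2-fold with the median of all genes set to 1 (log2 ratio -1.21), with SCR1 as reference (-1.22) and with ATG26 and BDF1 in the library size (-1.19), but not without scaling (-0.72). Under the first 3 of these, 8 of the 10 genes had a ratio below 1, in place of 5. More of all genes lay below 1 there too. With the median set to 1, as many genes lie below as above by definition. The median log2 ratio of all genes was -0.01 with SCR1 and 0.01 with ATG26 and BDF1 in the library size, in place of 0.25. Without scaling the median log2 ratio of the 10 genes was 0.21 in place of -0.02. The scaling also sets the balance over all genes: at least 2-fold higher were 81.7% of the genes past 2-fold in either direction with the scaling used here, 64.3% with ATG26 and BDF1 in the library size, 63.1% with the median set to 1, 61.7% with SCR1 and 90.7% without scaling. Without a minimum count, 15 listed pathway genes in place of 9 passed 2-fold, 9 of them higher in place of 3, because transporter genes with fewer than 10 counts then entered. The share of all genes past 2-fold was not computed for this setting. Depth limits HXT5, SNF3 and MTH1, which had at most 95 counts in either library, and the remaining transporter genes most.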

Other observations

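Genes with many Rgt1 matches were looked at over the whole genome after the values of HXT1 and HXT3 had been seen, as a description without a test. Of the 74 genes tested with 5 or more matches in the 1000 bases before the start codon, 10 (13.5%) were at least 2-fold lower in npl3Δ and 7 (9.46%) at least 2-fold higher. Of the 1899 genes tested without a match, 31 (1.63%) were lower and 210 (11.1%) higher. The shares in between did not climb steadily, with 2.29% lower among genes with 1 match, 2.67% with 2 and 1.58% with 3. The share of 7.07% lower among genes with 4 or more matches includes the genes with 5 or more. Of the 10 lower genes, HXT1, MIG2, MIG3, HXT8 and ADH2 are genes whose lower counts were given before, and without the transporter, sensor and listed pathway genes 5 of 68 (7.35%) were lower. The median log2 ratio was 0.17 with 5 or more matches and 0.27 with none. Besides HXT1, HXT3 and MIG2, 4 genes tested had 7 matches. Of these, GLN1, the glutamine synthetase gene, had 1296 and 477 counts (log2 ratio -1.68) and ICY1 had 76 and 42 (-1.08). The ribosomal protein gene RPS15 had 4093 and 4445 counts (-0.12), and IMA5 had 17 and 23 (0.19). Of the 16 genes tested with 6 matches, 4 were at least 2-fold lower (HXT8, ADH2, MDH2 and YKR075C) and 2 at least 2-fold higher (FLO1 and TGL2). All genes named here were chosen after their values were seen. MDH2, encoding the cytosolic malate dehydrogenase, had 494 and 169 counts (-1.78) and YKR075C had 160 and 70 (-1.42), whereas FLO1, a flocculation gene on chromosome I, had 179 and 534 (1.34). MDH2 shares its window with the divergent gene TRM13, which also had 6 matches but 142 and 164 counts (-0.03), so genes are not independent here.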
